A study of Mus musculus with 24 samples.

Results

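Transcripts of inner retinal neurons were followed through 24 libraries of isolated mouse retinal pigment epithelium (RPE), the pigmented cell sheet behind the photoreceptors. The 9 genes, of 31053 counted, were Grm6, Trpm1 and Prkca (bipolar cells), Cplx4 (a synaptic protein), Gad1, Tfap2a and Tfap2b (amacrine cells), Nefl (ganglion cells) and Lhx3 (a homeobox gene of some bipolar cells). They were selected by name, with earlier results of these counts known, in which several of them were higher in mutants. Mutant against control values of these genes are therefore given as a description with no test, and the tests below are of the change with age, averaged over both genotypes. Whether earlier age results also had a part in the choice is not stated.

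Controls carried the Dct-Cre driver, and mutants carried the same driver with floxed Ift20, which encodes a protein of the particles that carry cargo along cilia. The Dct promoter is active in pigment cells, so both groups express Cre there, and a group without Cre was not analysed here. The isolated cells came from mice at P11 and P29 (P, days after birth) and at 3 months (3M), all untreated and of mixed background whose sex was not recorded. Each of the 6 groups of genotype and age had 4 libraries. The labels number these as biological replicates without saying whether 1 library is 1 animal or a pool, so p-values measure the spread between libraries.

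Bipolar cells carry signals from photoreceptors to ganglion cells, whose axons form the optic nerve, and amacrine cells are mostly inhibitory interneurons of the same layers. ON bipolar cells sense photoreceptor glutamate with the receptor mGluR6, the product of Grm6, which closes the cation channel TRPM1 through a G protein in the dark. Not every gene here is private to these neurons. Trpm1 was first described in melanocytes, Cplx4 is also a complexin of photoreceptor ribbon synapses, Tfap2a and Tfap2b act in surface ectoderm, Lhx3 acts in the pituitary, and Prkca is transcribed in many tissues. A gene's symbol therefore does not say which cell its counts came from.

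The libraries held 1513440 to 2889946 gene counts. The level of a gene is given as CPM, its counts scaled to a common library total with TMM factors. A count of 3 in a library, taken as the floor, is 1.04 to 1.98 CPM, and floors and count intervals cover counting error only. The kit reads near the 3' end and gives about 1 tag per transcript, so levels are not divided by length and are not compared between genes. The markers of the labelled cell type were present: 8 RPE markers summed to a mean of 19510 CPM in P11 controls, 50040 CPM in P29 controls and 68210 CPM in 3M controls. In such bulk RNA fewer cells of a type and less RNA per cell cannot be told apart.

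Promoter windows were examined for the ON bipolar pair because the receptor and its channel fell to such different extents with age. RefSeq (GRCm38.p6) lists 1 start for Grm6, at the gene on chromosome 11 from 50850685 to 50866208, and 2 starts for Trpm1, on chromosome 7 from 64153835 to 64269775, both on the plus strand. The windows run from 250 bases before to 50 bases after the start, 5′ to 3′. Capitals mark CACGTG and CATGTG, the E-boxes that MITF-type factors of pigment cells can bind, and TAATCC, the core that photoreceptor and bipolar homeobox factors of the OTX type can bind, on either strand.
Grm6 (chr11:50850435-50850734, plus strand): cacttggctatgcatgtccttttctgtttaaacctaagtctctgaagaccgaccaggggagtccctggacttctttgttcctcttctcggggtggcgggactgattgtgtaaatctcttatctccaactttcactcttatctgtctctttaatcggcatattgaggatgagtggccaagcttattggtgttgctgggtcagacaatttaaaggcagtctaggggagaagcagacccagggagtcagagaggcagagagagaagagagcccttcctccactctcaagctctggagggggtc
Trpm1 first start (chr7:64153585-64153884, plus strand): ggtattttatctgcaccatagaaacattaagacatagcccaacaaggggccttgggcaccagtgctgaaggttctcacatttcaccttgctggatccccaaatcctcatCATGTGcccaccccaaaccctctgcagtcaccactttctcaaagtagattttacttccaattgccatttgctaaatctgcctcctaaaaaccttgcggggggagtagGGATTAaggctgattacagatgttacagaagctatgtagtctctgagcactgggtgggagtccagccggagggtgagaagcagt
Trpm1 second start (chr7:64185209-64185508, plus strand): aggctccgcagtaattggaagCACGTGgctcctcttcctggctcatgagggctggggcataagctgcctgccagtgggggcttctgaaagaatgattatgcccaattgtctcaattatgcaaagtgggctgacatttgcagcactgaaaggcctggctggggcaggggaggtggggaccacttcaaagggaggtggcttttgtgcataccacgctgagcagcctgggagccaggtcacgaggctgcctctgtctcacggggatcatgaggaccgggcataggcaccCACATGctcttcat
The Grm6 window held none of the 3 motifs. The first Trpm1 window held CATGTG at position -141 from the start and TAATCC on the other strand at -34. The second Trpm1 window held CACGTG at position -229 from the start and CATGTG on the other strand. Of 32851 RefSeq windows of 300 bases, CACGTG was in 7.15%, CATGTG in 14.2% and TAATCC in 7.06%, so each motif is common. Over all the genes described, 7 were scanned, with 10 windows, and Nefl and Cplx4 were not. Of the 10 windows 3 held a motif: both of Trpm1 and that of Gad1, which held TAATCC. A match is a string of letters and not a bound site, and counts at the 3' end do not tell which Trpm1 start was used.

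Grm6, the ON bipolar glutamate receptor, was seen almost only at P11. In P11 controls it stood at 18.4, 28.3, 17.1 and 21.8 CPM (mean 21.4 ± 5.0, SD, n = 4), and in P11 mutants at 38.8, 28.4, 30.4 and 54.0 CPM (37.9 ± 11.7). All 4 mutant libraries were above all 4 controls, though the lowest mutant and the highest control nearly met. No count was found in the 4 P29 controls or the 4 3M controls. P29 mutants stood at 1.84, 0, 0 and 2.74 CPM and 3M mutants at 4.30, 1.74, 0.898 and 1.31 CPM, levels near the floor.

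From P11 to P29 the pooled counts of Grm6 over 8 libraries each went from 515 to 11, which was 53.6-fold lower (95% exact interval 29.7 to 108). Grm6 passed the low-count filter only through its P11 libraries, as did Tfap2a, Gad1 and Lhx3, so each of the 4 had to be lower after P11, and this step is given for them with no test. In controls alone, with no count at P29, the fall was at least 70.1-fold over a group floor of 3 counts. Mutants had 11 counts at P29 and 20 at 3M, at least 3.84-fold and 6.66-fold above the empty control groups. These are small counts, and the P29 counts came from 2 libraries. No mean change over genotypes from P29 to 3M can be given, since controls were at 0 at both ages.

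Trpm1, the cation channel that mGluR6 closes, stayed well counted to 3 months and fell in steps. Controls stood at 299.8, 294.2, 269.6 and 257.2 CPM at P11 (280 ± 20.2), at 169.6, 154.2, 165.6 and 158.0 CPM at P29 (162 ± 6.98), and at 81.2, 82.7, 78.5 and 64.3 CPM at 3M (76.6 ± 8.44). The 3 ages did not overlap. Mutants stood at 324.8, 310.5, 307.7 and 343.1 CPM at P11, at 165.5, 176.1, 196.9 and 139.9 CPM at P29, and at 70.4, 82.8, 71.9 and 69.4 CPM at 3M. They were above controls at P11 and overlapped them at both later ages.

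Averaged over genotypes, Trpm1 fell by 0.86 on the log2 scale from P11 to P29 (SE 0.07, edgeR adjusted p = 1.97e-18) and by 1.14 from P29 to 3M (SE 0.08, adjusted p = 1.49e-23). In controls Trpm1 was at 57.8% of its P11 level at P29, where Grm6 had no count. Set beside it, the summed level of 12 melanocyte and pigment cell markers in controls was 56.2% of P11 at P29 and 33.9% at 3M, and Trpm1 was 27.4% at 3M. The markers in that sum did not move together: from P11 to P29, 5 of the 12 fell, with the melanosome protein Pmel at -2.30 (SE 0.06), and 4 rose, with the pigment cell factor Sox10 at 1.28 (SE 0.11), and from P29 to 3M 6 fell and 2 rose. In mutants, relative to P11 controls, Trpm1 stood at 115%, 60.5% and 26.3%, and the pigment marker sum at 88.0%, 56.5% and 40.4%, so Trpm1 began above the sum and ended below it. Whether pigment cell RNA has a part in the Trpm1 level was not tested.

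**Figure D1:**
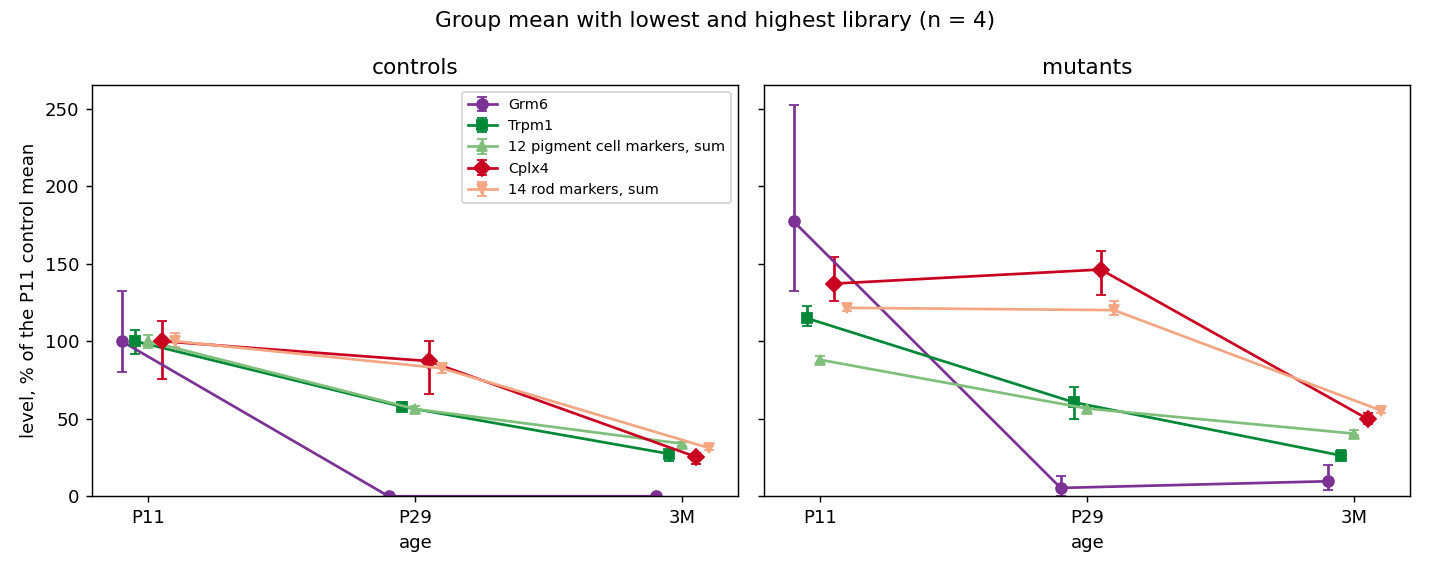
Group mean level at P11, P29 and 3M as a percent of the P11 control mean, controls left and mutants right, with bars from the lowest to the highest of 4 libraries, for Grm6, Trpm1, Cplx4 and the summed levels of 12 pigment cell and 14 rod markers. Grm6 goes to 0 in controls at P29, Trpm1 and the pigment marker sum are close in P29 controls (57.8% and 56.2%) and apart in P11 mutants (115% and 88.0%) and 3M mutants (26.3% and 40.4%), and Cplx4 and the rod marker sum are close in P29 controls (87.2% and 82.5%) and apart in P29 mutants (146% and 120%).

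Prkca encodes protein kinase C alpha, the classical marker of rod bipolar cells. It stood at 108, 88.4, 73.4 and 93.0 CPM in P11 controls (90.7 ± 14.2) and at 133.2, 136.1, 105.9 and 172.2 CPM in P11 mutants (137 ± 27.2), overlapping at 1 library. P29 controls stood at 51.8, 53.4, 40.6 and 54.5 CPM (50.1 ± 6.43), and P29 mutants at 65.5, 59.9, 58.5 and 63.9 CPM (61.9 ± 3.28), just above every P29 control. At 3M the genotypes overlapped, with controls at 28.6, 46.5, 48.8 and 52.5 CPM (44.1 ± 10.6) and mutants at 60.2, 44.0, 44.9 and 46.7 CPM (49.0 ± 7.59). Prkca fell by 1.01 from P11 to P29 (SE 0.12, edgeR adjusted p = 2.07e-12), and its later difference of -0.26 (SE 0.12) did not pass the test (adjusted p = 0.130). Unlike Grm6, it kept 48.6% of its P11 level in 3M controls.

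Cplx4 encodes a complexin that regulates vesicle release at ribbon synapses. Of the 5 genes that pass the low-count filter without P11 libraries, only Cplx4 had a change from P11 to P29 that did not pass the test. Controls stood at 129.7, 95.1, 141.7 and 135.5 CPM at P11 (126 ± 20.9), at 82.8, 125.5, 108.8 and 120.4 CPM at P29 (109 ± 19), and at 33.2, 25.7, 33.6 and 35.2 CPM at 3M (31.9 ± 4.21). Mutants stood at 193.6, 165.7, 157.7 and 171.0 CPM at P11 (172 ± 15.4), at 193.2, 163.1, 178.9 and 198.7 CPM at P29 (184 ± 15.9), and at 58.7, 60.6, 67.4 and 63.3 CPM at 3M (62.5 ± 3.78). Every mutant library was above every control of its age. The first age difference was -0.05 (SE 0.09, edgeR adjusted p = 0.665), and the second a fall by 1.66 (SE 0.10, adjusted p = 5.63e-28).

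In the genotype contrasts, given as a description, Cplx4 was higher in mutants by 0.45 (SE 0.13), 0.75 (SE 0.13) and 0.96 (SE 0.15) on the log2 scale at P11, P29 and 3M. The summed level of 14 rod markers was likewise higher in mutants at each age: 14190 CPM in P11 controls and 17250 in P11 mutants, 11710 and 17040 at P29, and 4420 and 7846 at 3M. As a percent of P11 controls, Cplx4 in controls was at 87.2% and 25.4% at P29 and 3M, and the rod sum at 82.5% and 31.1%. Mutant Cplx4 stood at 137%, 146% and 49.8% at the 3 ages, and the mutant rod sum at 122%, 120% and 55.3%. All 14 rod markers passed the test as lower at 3M than at P29, among them Gnat1, rod transducin, which fell by 1.47 (SE 0.05). From P11 to P29 the markers in that sum did not move together. Of the 14, 3 passed as higher, with Gnat1 at 1.76 (SE 0.05), and 10 as lower, with Nr2e3 at -1.82 (SE 0.06). The part of rod RNA in the Cplx4 level was not tested.

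Tfap2b, an AP-2 transcription factor of amacrine cells, stood at 67.5, 78.8, 63.3 and 53.1 CPM in P11 controls (65.7 ± 10.6) and at 120.9, 131.3, 146.1 and 135.2 CPM in P11 mutants (133 ± 10.4). The P11 groups were far apart, with a log2 difference of 1.02 (SE 0.21). At P29 controls stood at 9.28, 7.57, 16.6 and 9.91 CPM (10.8 ± 3.96) and mutants at 12.9, 12.2, 10.3 and 10.6 CPM (11.5 ± 1.28), overlapping. At 3M controls stood at 0.421, 0.903, 0.872 and 1.62 CPM and mutants at 8.21, 2.61, 6.74 and 3.06 CPM, again apart, on 9 and 49 counts. The higher level of mutants at P11 was thus not seen at P29 and was seen again at 3M. Tfap2b fell by 3.06 from P11 to P29 (SE 0.17, edgeR adjusted p = 5.18e-30) and by 2.28 from P29 to 3M (SE 0.26, adjusted p = 6.87e-12).

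Tfap2a, a related factor, was sparse. It stood at 4.01, 13.8, 12 and 5.31 CPM in P11 controls, at 6.39, 10.5, 5.81 and 19.5 CPM in P11 mutants, at 1.79, 0, 1.84 and 3.47 CPM in P29 controls, and at 2.31, 5.52, 0.427 and 4.31 CPM in P29 mutants. The genotypes overlapped at both ages. At 3M it had 0 counts in controls and 3 in mutants, and no fold is given there. Pooled counts went from 162 to 48 from P11 to P29, which was 3.87-fold lower (95% exact interval 2.79 to 5.45, no test), and to 3 at 3M, 15.3-fold lower than at P29 (interval 4.92 to 76.6; edgeR adjusted p = 2.15e-04). Of the other AP-2 genes only Tfap2c passed the low-count filter, through its P11 libraries alone, with a change of -2.35 from P11 to P29 (SE 0.49).

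Gad1 makes the transmitter GABA from glutamate. It stood at 19.7, 13.2, 12.7 and 15.4 CPM in P11 controls and at 25.6, 16.6, 24.1 and 17.5 CPM in P11 mutants, which overlapped. At P29 it was near the floor, at 0, 0.399, 4.06 and 2.48 CPM in controls and at 0, 2.76, 2.56 and 0.392 CPM in mutants. At 3M no control had a count, and 6 counts came from 1 mutant library. Pooled counts of 317 at P11 and 31 at P29 gave a level 11.7-fold lower at P29 (95% exact interval 8.09 to 17.5, no test), and the 6 counts at 3M one 4.93-fold lower again (interval 2.03 to 14.4; edgeR adjusted p = 0.00493). Without mutant replicate 2 no count remained at 3M.

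Nefl, the light neurofilament subunit of ganglion cell axons and other large axons, had its genotype difference at a single age. At P11 controls stood at 79.9, 74.6, 84.2 and 81.3 CPM (80.0 ± 4.01) and mutants at 75.2, 84.6, 73.3 and 56.0 CPM (72.3 ± 11.9), overlapping. At P29 controls stood at 18.2, 16.7, 9.96 and 12.4 CPM (14.3 ± 3.82) and mutants at 25.4, 40.2, 41.0 and 42.7 CPM (37.3 ± 8.04), apart, with a log2 difference of 1.38 (SE 0.33). At 3M the groups overlapped, with controls at 2.53, 0.903, 3.49 and 9.70 CPM and mutants at 1.17, 15.3, 9.43 and 6.11 CPM.

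Over both genotypes Nefl fell by 1.71 from P11 to P29 (SE 0.22, edgeR adjusted p = 2.67e-08) and by 1.99 from P29 to 3M (SE 0.28, adjusted p = 3.28e-07). The first step was -2.47 (SE 0.33) in controls and -0.95 (SE 0.30) in mutants, values that share libraries with the genotype difference and were not tested against each other. Nefl, on chromosome 14 from 68083863 to 68089095, overlaps Nefm on the opposite strand at its 3' end. Whether counting used the strand is not stated, so the counts of Nefl are uncertain to that extent. Grm6, Prkca, Tfap2a, Gad1 and Lhx3 also overlap counted genes on the opposite strand, though not at their 3' ends.

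Lhx3, a LIM homeobox factor of a subset of cone bipolar cells and of the pituitary, was in effect a P11 mutant transcript. P11 controls stood at 2.01, 0, 0 and 1.59 CPM and P11 mutants at 20.2, 6.54, 20.1 and 16.7 CPM (15.9 ± 6.42). All 4 mutants were above all controls, on 142 against 9 counts, a ratio of 14.2 (95% exact interval 7.26 to 31.7). That ratio is a description, since the genes were chosen with earlier genotype results known. At P29 and 3M controls had no count and mutants had 6 counts at each age, all from 1 library. From P11 to P29 pooled counts went from 151 to 6, 28.8-fold lower (interval 12.9 to 79.8, no test). Without P29 mutant replicate 3 no count remained at P29.

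Beside the Lhx3 difference, 11 pituitary and hypothalamic markers summed to 26 to 77.5 CPM in P11 controls and to 1.47 to 7.41 CPM in P11 mutants. Only 3 of the 11 were tested, all through P11 libraries alone. Of these 3, only Avp was called lower in P11 mutants, where it had no count. Oxt at -2.09 (SE 1.00) and Pomc at -0.60 (SE 0.94) on the log2 scale did not pass (edgeR). The hormone genes Cga, Gh, Lhb and Prl and the factor Hesx1 were at 0 in every library. The part of such tissue in the Lhx3 level was not tested. Of 5 other LIM homeobox genes tested, 4 of which passed the filter only through P11 libraries, 4 fell and 1 rose from P11 to P29. Lhx4, a close relative of Lhx3 and one of those 4, had a change of -4.77 (SE 0.37), and Lhx2, a factor of the eye field and RPE, rose by 0.60 (SE 0.09). None of the 5 passed the genotype test at P11 (edgeR).

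**Figure D2:**
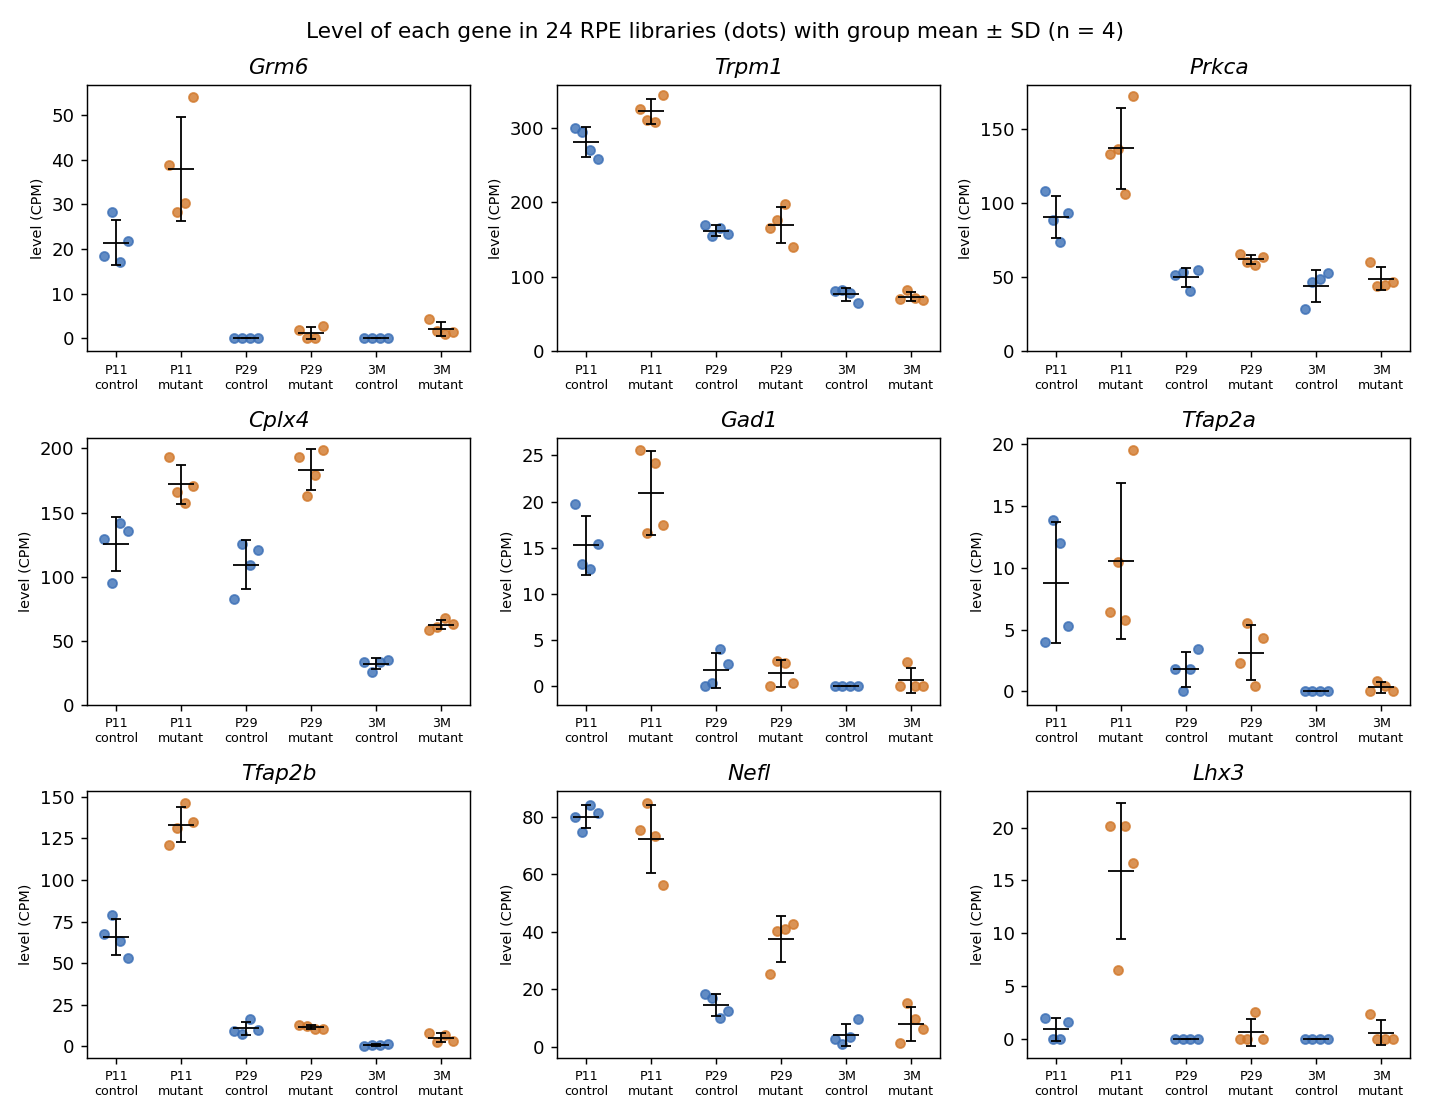
Level of each of the 9 genes in CPM (y axis) in each of the 24 libraries (dots), by genotype and age, with the group mean and SD (n = 4). Grm6, Gad1, Tfap2a and Lhx3 lie near 0 after P11, Trpm1 and Tfap2b step down at each age, and Cplx4 drops only at 3M.

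Set side by side, 8 of the 9 genes were called lower at P29 than at P11, where 21.7% of 12303 tested genes were lower and 21.6% higher (edgeR, adjusted p under 0.05). From P29 to 3M, 6 were called lower, where 13.1% of all genes were lower and 8.07% higher. Of the 9, 4 (Grm6, Tfap2a, Gad1 and Lhx3) passed the low-count filter only through their P11 libraries and so had to differ from P11. Of the other 5, 4 were lower in each step, with Cplx4 the exception in the first and Prkca in the second. The median change of all tested genes was -0.02 in both steps.

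**Figure D3:**
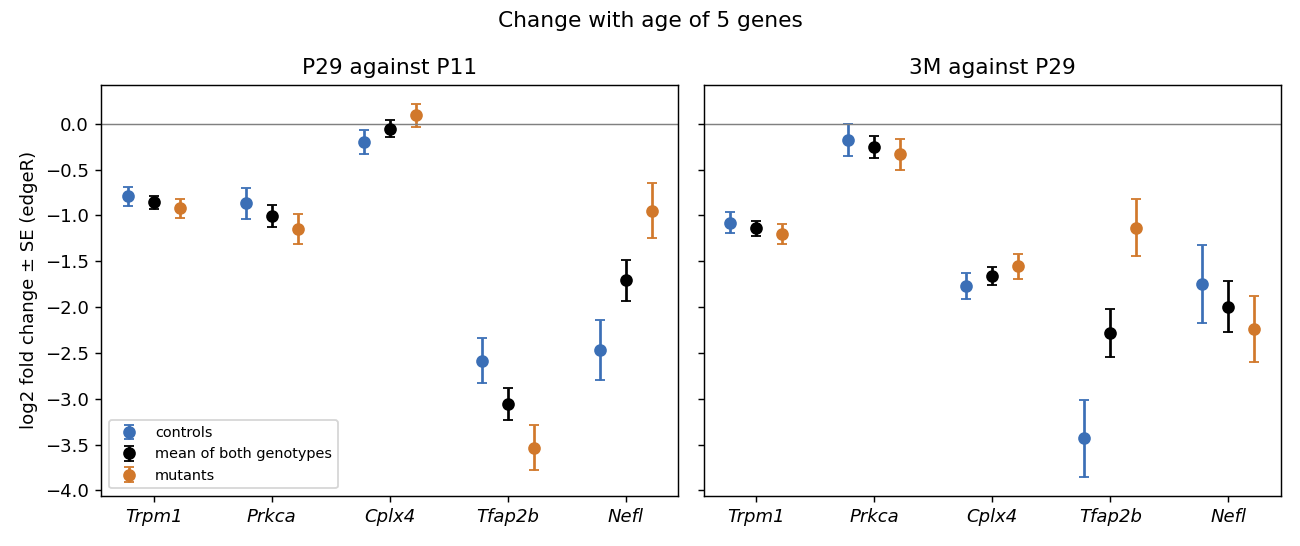
Log2 fold change with age (y axis, ± SE of the edgeR fit) for the 5 genes that pass the low-count filter without P11 libraries, in controls, in mutants and as the mean of both. Trpm1 has nearly the same steps in both genotypes, Cplx4 lies at 0 in the first step and at -1.66 in the second, and Nefl and Tfap2b differ most between genotypes.

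The genotype contrasts are given here only as a description, since the 9 were chosen with several known to be higher in mutants. Passing the threshold is thus no test of these genes, and the shares of all genes are given for scale only. In these contrasts 4 of the 9 were past the threshold as higher in mutants at P11 (Tfap2b, Prkca, Lhx3 and Cplx4). At P29 it was 3 (Grm6, Nefl and Cplx4) and at 3M 3 (Grm6, Tfap2b and Cplx4), and none passed as lower. Of all genes, 3.26% were higher and 3.67% lower at P11, 1.63% and 1.21% at P29, and 2.13% and 0.48% at 3M. Cplx4 is the one gene on all 3 lists. Trpm1, Tfap2a and Gad1 were on none.

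Other genes of the ON bipolar cascade did not move as a block. Of 10 tested, 6 fell and 3 rose from P11 to P29, and 3 fell and 1 rose from P29 to 3M; 2 of the 10 passed the filter only through P11. Gpr179, which anchors the cascade at the dendritic tip, had a log2 change of -2.31 (SE 0.25), Pcp2, a modulator of the G protein, one of -2.85 (SE 0.33), and Gnb3, the beta subunit shared with cones, steps of -2.11 (SE 0.15) and -1.39 (SE 0.18). Gnao1, the alpha subunit that mGluR6 activates and many cells express, rose by 0.44 (SE 0.05) and then by 0.40 (SE 0.05). Rgs9bp, the anchor of the RGS9 complex that rods use too, rose by 0.42 (SE 0.09) and then fell by 1.37 (SE 0.10).

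The other bipolar cell genes were all lower at P29: 10 of 10 tested, of which 6 passed the filter only through P11, and 4 of the remaining 4. Among those 4, Cplx3, the sister complexin of Cplx4, changed by -3.02 (SE 0.20). Cabp5, a calcium-binding protein of bipolar cells and one of the 6 that passed only through P11, stood at -3.33 (SE 0.50). Cplx3 and Cplx4 thus differed in the first step, one at -3.02 and the other at -0.05, a gap that was not tested, while both fell from P29 to 3M, Cplx3 with a change of -1.40 (SE 0.26). From P29 to 3M 6 of the 10 fell.

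Among 14 amacrine genes tested, 10 were lower and 1 higher at P29, and 7 lower and 1 higher at 3M; 7 passed only through P11, and of the other 7, 3 were lower in each step. Calb2, the calcium buffer calretinin, changed by -2.52 (SE 0.25) and then by -3.93 (SE 0.42). Slc6a9, a glycine transporter, was the gene that rose, by 0.50 (SE 0.06) and 0.19 (SE 0.06). Of 14 ganglion cell genes, 12 were lower at P29, 6 of 8 without those that passed only through P11, with the neuronal ubiquitin hydrolase Uchl1 at -3.28 (SE 0.24) and the growth cone gene Gap43 at -2.41 (SE 0.25). From P29 to 3M 8 fell and 1, Rbpms2, rose by 0.56 (SE 0.19).

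Horizontal cell genes were scarce at every age: 5 genes summed to 15.6 CPM in P11 controls and 34.8 CPM in P11 mutants and to under 3 CPM in the mean of each later group, and the 3 tested all passed the filter only through P11. Presynaptic and ribbon genes had 17 of 20 lower and 1 higher at P29 and 14 lower and 1 higher at 3M. Of these 20, 6 passed the filter only through P11, and of the other 14, 11 were lower in each step. Snap25, a fusion protein of nerve terminals, changed by -1.99 (SE 0.11) and -1.42 (SE 0.13), and Slc17a7, the vesicular glutamate transporter of photoreceptors and bipolar cells, fell by 1.29 (SE 0.08) at the later step. Of all tested genes, 21.7% were lower at P29 and 13.1% at 3M. Listed genes that passed the filter only through P11 had to be lower at P29. Only the counts without them can therefore be set beside the first share. None of the 3 horizontal cell genes was called lower from P29 to 3M.

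**Figure D4:**
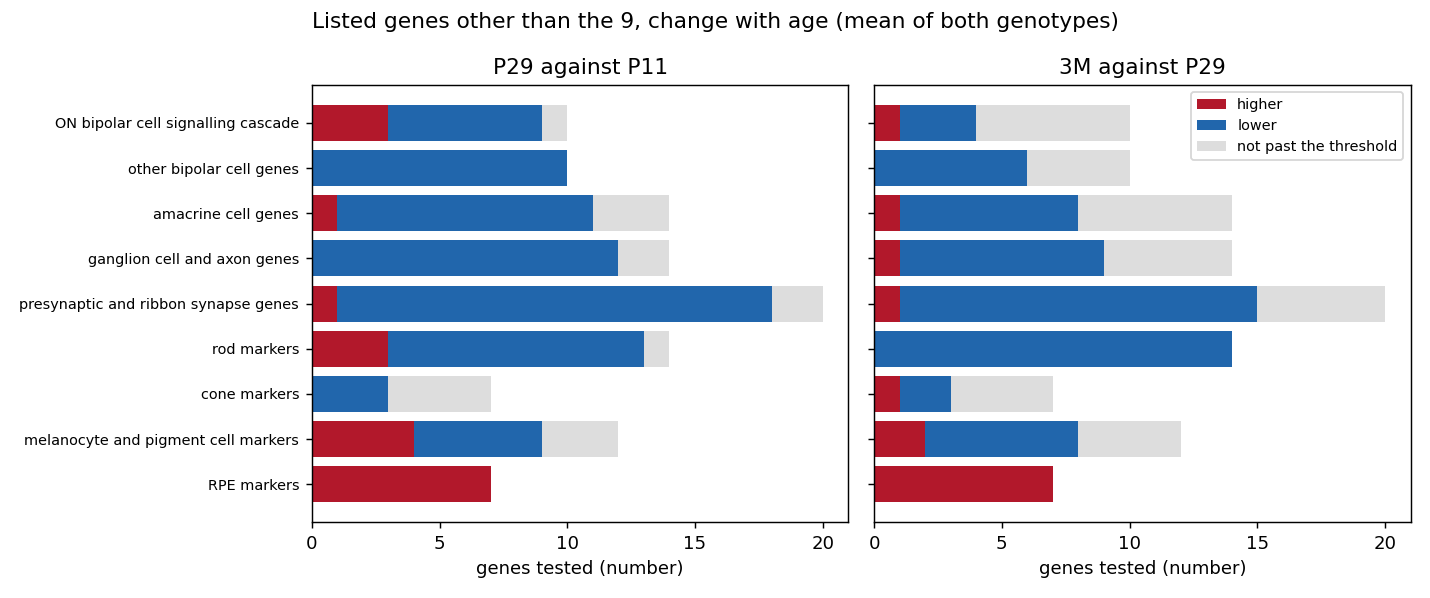
Number of tested genes in each list (x axis), without the 9 genes themselves, that were higher, lower or not past the threshold (edgeR, mean of both genotypes) at P29 against P11 and at 3M against P29. Other bipolar genes are lower in 10 of 10 at P29, though 6 of these passed the low-count filter only through P11. The ON cascade is mixed with 3 higher and 6 lower, and RPE markers are higher in 7 of 7 in both steps.

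Between genotypes the counts of these lists stand beside 3.26%, 1.63% and 2.13% of all genes higher in mutants at P11, P29 and 3M. Of the 10 other genes of the ON bipolar cascade 3, 1 and 4 were higher, and of the 20 presynaptic and ribbon genes 2, 4 and 3, with none lower in either list. Of the 14 amacrine genes tested 0, 1 and 1 were higher in mutants at P11, P29 and 3M, of the 14 ganglion genes 0, 1 and 0, and of the 10 other bipolar genes 0, 1 and 3; lower were 1 amacrine gene at P11 and 1 bipolar gene at P29. Rod markers were higher in 7, 13 and 13 of 14 and cone markers in 1, 0 and 3 of 7. RPE markers were lower in 6, 5 and 1 of 7, and Mueller glia and astrocyte markers in 3, 0 and 0 of 8. Of those 8 glial markers 1 was higher in mutants, at P29. Markers of other tissues differed too. Lens markers were lower in 4 of 10 in P11 mutants (104 to 151 CPM in controls, 48.9 to 56.4 CPM in mutants) and higher in 9 of 10 in P29 mutants (42.2 to 58.5 CPM and 769 to 859 CPM). Endothelial markers were lower in 4 of 8 in P11 mutants and higher in 1 and 2 of 8 in P29 and 3M mutants, and myelin and Schwann cell markers were lower in 6 of 7 in P11 mutants (367 to 501 CPM and 46.7 to 70.3 CPM). Their part in the values of the 9 genes was not tested.

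Tfap2a and Tfap2b are also genes of surface ectoderm, and 9 markers of corneal and stratified epithelium moved between genotypes. Their sum was 62.4 CPM in P11 controls and 93.9 CPM in P11 mutants, 35.4 and 107 CPM at P29, and 13 and 34.3 CPM at 3M. Of the 5 tested markers 3 were higher in mutants at each age. The list includes Pax6, which is also in the amacrine list and was among the 3 at 3M (log2 difference 1.22, SE 0.33). The part of such epithelium in the Tfap2a and Tfap2b levels was not tested.

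Genes with the most similar pattern over the 24 libraries were found by Pearson's r of log2 CPM, for the 7 genes that average at least 5 CPM. These values are descriptions, since libraries share age and genotype. Trpm1 was closest to Dnmt3a (0.982), Tet3 (0.972) and Tcf4 (0.968), Cplx4 was near the photoreceptor genes Prph2 (0.973) and Rcvrn (0.960), and Grm6 was closest to Rpgrip1 (0.955), Lrrc4c (0.951) and Tmem215 (0.948). Tfap2b was closest to Ntm (0.979), Celf4 (0.978) and Samd11 (0.977), and Nefl to Snap25 (0.935), Cadm2 (0.930) and Dusp8 (0.928). Prkca had Cep290 (0.930), Ezh2 (0.922) and Atp2b1 (0.922), and Gad1 had Fam161a (0.942), Celf5 (0.938) and Gdap1l1 (0.928). No gene of the 9 was among the closest 3 of another.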

How the data were processed

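RNA of isolated RPE cells was read with a 3' mRNA kit in 24 libraries. The authors deposited whole-number counts per gene, 1 table per library; per the submitters' processing notes STAR and mm10 were used. The counting tool, its strand setting and any molecular identifiers are not stated. Each table held 31053 gene identifiers, of which 30934 matched a symbol in the GENCODE annotation of GRCm38 or the gene name table, and 5 entries that name no gene, kept out of library sizes and tests. Reads in no feature were 18.6% to 27.5% of a library, reads aligned to several places 31.0% to 37.2% and ambiguous reads 0.192% to 0.322%.

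Groups follow the genotype and age in the labels. Counts were tested with edgeR 4.0.16 in R 4.3.3 (quasi-likelihood, robust, TMM, factors 0.937 to 1.049, filterByExpr, 12303 genes, Benjamini-Hochberg adjusted p under 0.05) with a mean for each of the 6 groups and all 24 libraries in the fit. The mean age change over both genotypes is orthogonal to the genotype contrasts. Which earlier comparison led to the choice of each gene is not stated. Earlier age results may have had a part, so the age p-values may not be free of that choice. Standard errors are the log2 fold change over the root of F. The members, the 18 lists of 203 distinct genes and the rule for named genes (all 9 genes, up to 3 of each list with the smallest p in each age step, and the 3 closest patterns) were chosen with earlier results of these data known; Slc6a9, Rbpms2, and the earlier step of Gnao1 and Rgs9bp, fall outside it and were added after their values were seen. Some genes that the rule takes are left out of the text. A fold against a group without counts is a bound over 3 counts in that group, and intervals of sparse genes are 95% exact binomial on pooled counts. The test was checked on simulated counts.

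Other settings tried were DESeq2 1.42.0, median-of-ratios size factors in edgeR, no filter (19634 genes), a filter of 5 CPM in 4 libraries (11931 genes), only the groups compared, the replicate number as a block, and leaving out each library. Replicate pairs within groups (36) all differed beyond counting noise, with 2.98 to 7.15 chi-square units per gene, so each library was counted as its own.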

Additional observations from a re-analysis of the deposited data

Results flagged for a closer look

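Of 48 sets of 4 libraries (a gene in a group) with a count, 5 had a library standing apart from the other 3. A set with counts in only 1 library is always flagged, as 3 of the 5 were, so no chance rate is set beside this number. Prkca in 3M mutants had its highest library at 60.2 CPM, replicate 1. Nefl in P29 mutants had its lowest library at 25.4 CPM, also replicate 1, which was still above all P29 controls. The other 3 were single libraries of mutants that held all counts of their group: Gad1 at 2.61 CPM in 3M replicate 2, Lhx3 at 2.56 CPM in P29 replicate 3 and Lhx3 at 2.35 CPM in 3M replicate 1, each with 6 counts.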

How the results depend on the processing

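The numbers of the 9 genes called in each comparison kept within 1.5 times of the values given under size factors, filters, DESeq2 and the fit to the groups compared, with 1 exception: at 3M mutant against control had 1 gene in place of 3 when only the 8 libraries compared were fitted (10182 genes tested). Leaving out 1 library left 8 calls in the first age step and 6 in the second. Of the 8, 4 (Grm6, Tfap2a, Gad1 and Lhx3) passed the low-count filter only through P11 libraries. These 4 had to be lower, so their calls say nothing of how stable that step is. Between genotypes, as a description with no test, it gave 3 to 4 at P11, 1 to 3 at P29 and 3 to 4 at 3M. The 1 at P29 was without control replicate 4, where Nefl and Grm6 were lost. Replicate numbers did not pair the libraries: same-numbered libraries of different groups had correlations of -0.0374 to 0.0383 (60 pairs), and the fit with the replicate block gave 8, 6, 4, 3 and 3 calls in the 5 comparisons, the counts of the fit without it.

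The call of Lhx3 from P11 to P29, a step that the filter favours and that is given with no test, was lost with DESeq2 and kept under the other settings. Its fitted change was -4.42, and -6.24 without P29 mutant replicate 3. The fitted change of Gad1 from P29 to 3M was -3.07, and -4.91 without 3M mutant replicate 2. In the second step no fold was defined for Grm6 and Lhx3, which had no control count at either age, and these were left out. Values near 0 changed sign on leaving out a library: Cplx4 in the first step ran from -0.106 to 0.00759, and between genotypes Tfap2a at P11 from -0.199 to 0.589, and at P29 Tfap2b from -0.066 to 0.367 (-0.000135 without control replicate 1), Gad1 from -0.756 to 0.715 and Trpm1 from -0.0134 to 0.149, and Prkca at 3M from -0.00884 to 0.251. The cause of these was not tested. Genotype calls of Prkca (without control replicate 3 or mutant replicate 4) and Cplx4 (without control replicate 2 or mutant replicate 1) at P11, and of Grm6 at P29, were lost on leaving out single libraries. Depth limits Grm6, Gad1, Tfap2a and Lhx3 after P11, where groups held 31 counts or fewer.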
